A study of Mus musculus with 6 samples.

Results

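The T cell receptor recognises peptide antigen but has almost no cytoplasmic tail of its own, and relies on the CD3 chains, on a coreceptor and on a short cascade of kinases and adaptors. This account follows 9 genes of that machinery, chosen by symbol, among the 15944 genes measured in splenic regulatory T cells (Tregs), the Foxp3-expressing CD4+ lineage that holds immune responses in check. All 9 were found in the table: the CD3 chains Cd3e, Cd3d and Cd3g, the zeta chain Cd247, the coreceptor Cd4, the kinases Lck and Zap70, the adaptor Lat and the surface inhibitor Cd5. Bulk RNA was sequenced from 3 libraries of RORγt+ Tregs, which the labels also call biTreg, and 3 of CCR6+RORγt- Tregs, which they also call Treg17. Every library came from spleens of C57BL/6 mice, described as naïve, after enrichment of CD4+ cells. Both sorts required CD3 and CD4 on the surface and a red reporter of Foxp3. The RORγt+ sort took cells positive for a green reporter of RORγt, a transcription factor of type 17 T cells, and the CCR6+RORγt- sort took cells negative for that reporter that carried the chemokine receptor CCR6. The sources used here give neither age nor the design of the reporters. Nothing in the labels says whether the libraries came from separate mice, so every test weighs a difference against library-to-library spread that may be technical. In such bulk samples, fewer cells of a type and less RNA per cell cannot be told apart.

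In a resting T cell the coreceptor CD4 holds the kinase Lck near the receptor. Once the receptor binds antigen, Lck phosphorylates the tyrosine motifs of the CD3 and zeta chains, Zap70 docks on them and phosphorylates Lat, and Lat then gathers the enzymes that carry the signal inward. CD5 dampens this signal, and its level on T cells is widely read as a record of how strongly a cell engages self peptides. Tregs depend on the receptor for their development and for their suppressive function.

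Values are normalized counts, which allow a gene to be compared between libraries but not with another gene unless divided by transcript length. Column totals, in 1e6 normalized counts, were 11.3 to 11.4 in RORγt+ and 11.5 to 11.9 in CCR6+RORγt- libraries. Judged by the step between low values, depth in 1e6 reads was near 9.22 for RORγt+ replicate 3 and 10.8 to 14.5 for the other 5 libraries. At this depth the counting error of the 9 genes was 0.888% to 2.16% of the value, well under the spread between most replicates. RORγt+ replicate 3 stood apart, with 1247 genes listed at 0 against 438 to 638 elsewhere, and results for the 9 genes and the named genes of their pathway are given with and without it. The Treg label fitted the data, as Foxp3 ranged from 10835 to 12609 in RORγt+ libraries and from 9790 to 10187 in CCR6+RORγt- libraries. Ccr6, whose protein was used to sort the CCR6+RORγt- cells, was lower in them, with 698, 815 and 900 normalized counts in RORγt+ libraries, against 112, 143 and 148 in CCR6+RORγt- libraries (log2 fold change 2.58, adjusted p = 0.00554). Ikzf2, which encodes Helios, had 1435 in RORγt+ replicate 3 and 4784 to 7969 in the other 5 libraries. Of the markers of other cells, 2 CD8 T cell genes summed to at most 152 and 183, and 4 γδ T cell genes to 177 to 214 and 132 to 192, in the same order of groups. The 5 NK cell genes summed to 86.9 to 107 and 46.0 to 91.6, and the 5 of 7 myeloid genes that were measured to 71.0 to 157 and 39.0 to 64.5. The 7 B cell genes summed to 7226 to 10794 and 8310 to 10431, most of it Ighm. The 5 red cell genes ranged from 198 to 1219 and from 75.7 to 6159. No gene of these lists was at 0 in all 6 libraries, and the part of such cells in the results was not tested.

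The CD3 genes lie within one stretch of chromosome 9 in GRCm38. Cd3g spans 44969572 to 44980431 on the minus strand, Cd3d spans 44981786 to 44987339 on the plus strand, and Cd3e spans 44998740 to 45009627 on the minus strand. Cd3g and Cd3d are thus read away from each other from starts that lie close together. The 250 bases before each of the 3 starts are shown, with those before the start of Lat, the gene with the largest difference. The values of Cd3g and Cd3d differed in pattern, and no link between these sequences and the values was tested. Capitals mark GGAAGT, the core bound by ETS factors, on either strand. The sequences are those of RefSeq, build GRCm38.p6, for chr9:44981536-44981785 on the plus strand (Cd3d), chr9:45009612-45009861 on the minus strand (Cd3e), chr9:44980432-44980681 on the minus strand (Cd3g) and chr7:126369569-126369818 on the minus strand (Lat), each written in the direction of its gene.
Cd3d: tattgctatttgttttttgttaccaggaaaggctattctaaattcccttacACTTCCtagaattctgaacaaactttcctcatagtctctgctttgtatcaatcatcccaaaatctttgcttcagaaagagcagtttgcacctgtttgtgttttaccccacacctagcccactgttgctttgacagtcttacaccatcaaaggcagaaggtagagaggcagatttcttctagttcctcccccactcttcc
Cd3e: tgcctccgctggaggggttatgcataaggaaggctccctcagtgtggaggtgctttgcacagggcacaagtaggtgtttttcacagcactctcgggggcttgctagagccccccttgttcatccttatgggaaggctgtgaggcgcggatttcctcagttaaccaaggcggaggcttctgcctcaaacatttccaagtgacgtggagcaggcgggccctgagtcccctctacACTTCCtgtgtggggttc
Cd3g: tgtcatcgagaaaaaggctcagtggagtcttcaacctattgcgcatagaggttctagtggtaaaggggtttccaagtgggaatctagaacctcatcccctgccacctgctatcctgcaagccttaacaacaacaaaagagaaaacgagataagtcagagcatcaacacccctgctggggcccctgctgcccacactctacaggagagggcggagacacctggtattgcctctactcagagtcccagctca
Lat: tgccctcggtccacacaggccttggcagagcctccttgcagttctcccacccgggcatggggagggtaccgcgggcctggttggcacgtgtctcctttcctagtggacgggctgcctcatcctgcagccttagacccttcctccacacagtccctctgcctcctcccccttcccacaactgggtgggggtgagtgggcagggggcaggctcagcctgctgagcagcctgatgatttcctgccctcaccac

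The ETS core begins 199 bases before the RefSeq start of Cd3d and 18 bases before that of Cd3e, and these letters are not in the windows of Cd3g and Lat. The gene spans given here are those of GENCODE, whose starts can differ. The Cd3e window reaches down to 45009612, inside the span that ends at 45009627, so its core lies across the GENCODE start. Of the 8 genes with an entry, 11 start windows were searched on both strands for 4 motifs. GGAAGT was found in 7 of the 11 windows, those of Cd247, Cd3d, Cd3e and Cd5, both of Lck and 1 of the 3 of Zap70, against 19.7% of all 32851 windows of that length. AGGTCA, the core site bound by ROR and other nuclear receptors, was found once, 243 bases before the innermost of the 3 starts of Zap70, against 14% of all windows. The RUNX core TGTGGT was found in 1 window each of Lck and Zap70 (14% of all windows), and TATAAA in none (12.4%). A match describes letters and does not show binding.

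None of the 9 genes passed the test for a difference between the groups, at a Benjamini-Hochberg adjusted p under 0.05 over all genes (limma on log2 values). Over all genes 0.32% passed as higher and 0.245% as lower in RORγt+ Tregs. At an unadjusted p under 0.05 there was 1 of the 9 (Cd3g), near the share of 10.9% among all genes. The groups did not overlap in 3 genes, with Lat and Cd5 higher in all RORγt+ libraries, as were 8.31% of all genes, and Cd3g lower in all of them, as were 9.81%. The median log2 fold change of the 9 genes was -0.06, and that of all genes -0.01.

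**Figure D1:**
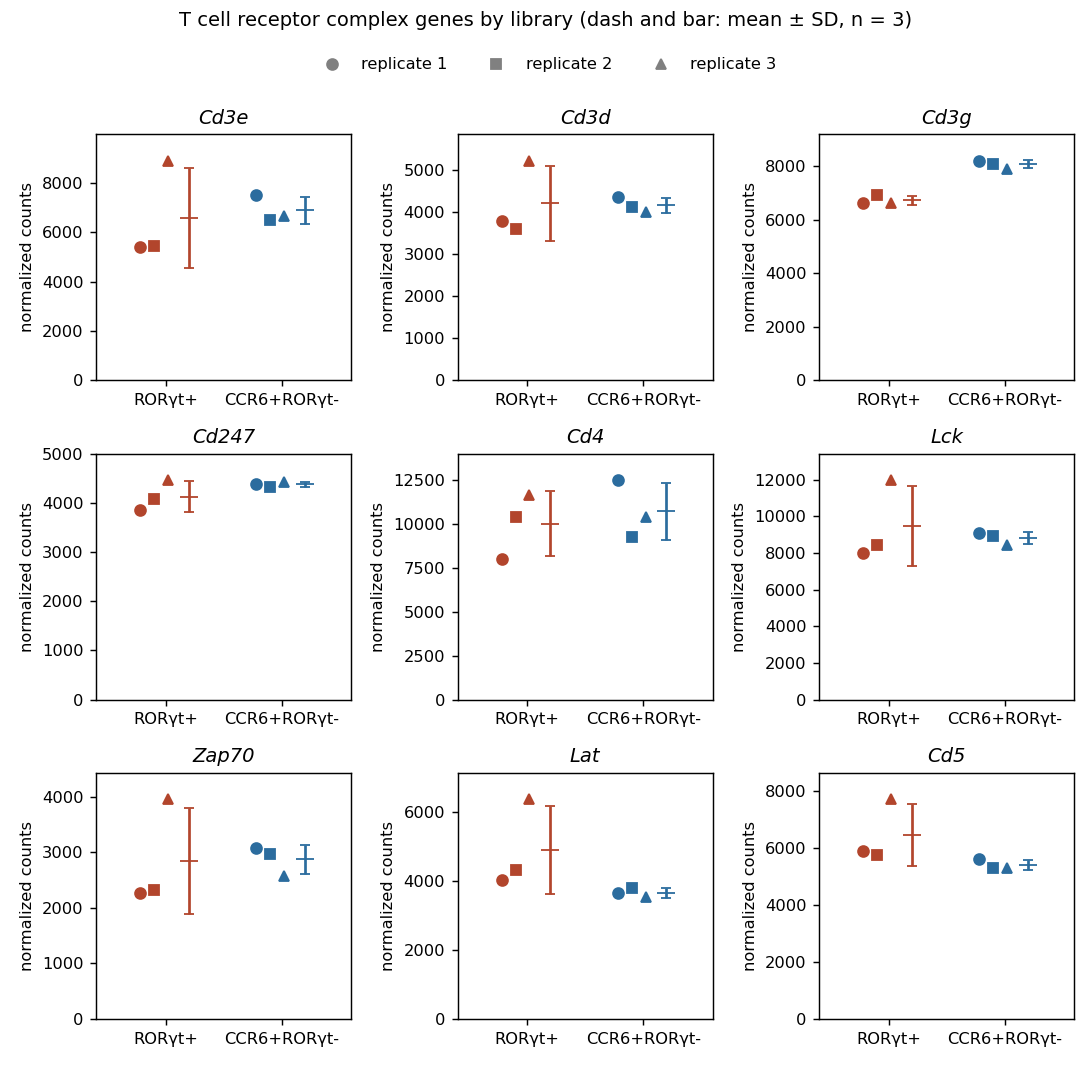
Normalized counts of each of the 9 genes in every library, RORγt+ Tregs on the left and CCR6+RORγt- Tregs on the right, with the mean and SD of 3 libraries beside the points and each axis starting at 0. RORγt+ replicate 3 (triangle) is the highest of the 6 libraries in 7 genes, while Cd3g shows 2 tight and separate groups.

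Among the chains that carry the signal, Cd3g (gamma chain) gave the tightest pair of groups. It stood at 6632, 6918 and 6632 normalized counts in RORγt+ Tregs, against 8215, 8107 and 7922 in CCR6+RORγt- Tregs. All 3 RORγt+ libraries lay below all 3 CCR6+RORγt- libraries, with a log2 fold change of -0.26 ± 0.10 (SE, n = 3 per group, adjusted p = 0.402, 95% interval -0.50 to -0.03). This is a level 0.832 times that of the CCR6+RORγt- sort.

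Cd3e, the epsilon chain that pairs with either the gamma or the delta chain, had 5409, 5438 and 8913 normalized counts in RORγt+ Tregs, against 7523, 6494 and 6666 in CCR6+RORγt- Tregs. RORγt+ replicates 1 and 2 were the lowest of the 6 libraries and replicate 3 the highest, so the groups overlapped and the fold change was -0.10 ± 0.21 on the log2 scale (adjusted p = 0.925). Cd3d, the delta chain, had 3800, 3602 and 5228 against 4361, 4129 and 3996. Its log2 fold change of -0.003 ± 0.16 had a 95% interval of -0.38 to 0.37. Both genes were thus low in RORγt+ replicates 1 and 2 and high in replicate 3.

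Cd247 (chromosome 1, 165788681 to 165877277, plus strand) encodes the zeta chain, which carries more of the tyrosine motifs than the other chains. It had 3853, 4070 and 4465 normalized counts in RORγt+ libraries, against 4376, 4322 and 4427 in CCR6+RORγt- libraries. The CCR6+RORγt- values agreed within an SD of 52.5, and the RORγt+ values were spread from below them to just above (log2 fold change -0.09 ± 0.11, adjusted p = 0.858). Its values are uncertain in one respect, since 57.7% of its 31-base sequence windows occur in other genes, mainly in Pou2f1 on the opposite strand, which had 479 to 1051 normalized counts, and no source used here states the strand setting of the libraries. The share was at most 3.10% in each of the other 8 genes.

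The coreceptor gene Cd4 (chromosome 6, 124864692 to 124888221, minus strand), whose protein binds MHC class II and brings Lck to the receptor, varied most among CCR6+RORγt- libraries. It had 8038, 10399 and 11673 normalized counts in RORγt+ Tregs, against 12516, 9283 and 10390 in CCR6+RORγt- Tregs. The groups were interleaved, and a log2 fold change between -0.52 and 0.32 lay within the 95% interval (adjusted p = 0.911).

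Lck (chromosome 4, 129548344 to 129573641, minus strand), the kinase that starts the cascade, had 8018, 8426 and 11982 normalized counts in RORγt+ Tregs, against 9107, 8917 and 8425 in CCR6+RORγt- Tregs. Replicate 3 of the RORγt+ sort exceeded the next library 1.32 times, and the other 5 libraries lay close together. The fold change was 0.08 ± 0.17 on the log2 scale (adjusted p = 0.93). Zap70 (chromosome 1, 36761798 to 36782818, plus strand), which docks on the phosphorylated chains, had 2257, 2311 and 3948 against 3079, 2964 and 2578. As with Cd3e, RORγt+ replicates 1 and 2 were the lowest of all and replicate 3 the highest, giving the largest relative spread of the 9 genes, 33.8% of the mean in RORγt+ libraries against 9.13% in CCR6+RORγt- libraries. Its log2 fold change was -0.06 ± 0.23 (adjusted p = 0.965).

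Lat (chromosome 7, 126363824 to 126369570, minus strand), the membrane adaptor that Zap70 phosphorylates, showed the largest difference of the 9 genes. It had 4025, 4332 and 6380 normalized counts in RORγt+ Tregs, against 3650, 3801 and 3535 in CCR6+RORγt- Tregs. Every RORγt+ library lay above every CCR6+RORγt- library, at 1.31 times the level (log2 fold change 0.39 ± 0.18, 95% interval -0.03 to 0.82, adjusted p = 0.501). Cd5 (chromosome 19, 10717116 to 10739002, minus strand), the inhibitory receptor, had 5873, 5749 and 7700 against 5606, 5295 and 5281. It too was higher in each RORγt+ library, although replicates 1 and 2 exceeded the highest CCR6+RORγt- library by little (1.18 times the level, log2 fold change 0.24 ± 0.14, adjusted p = 0.627).

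**Figure D2:**
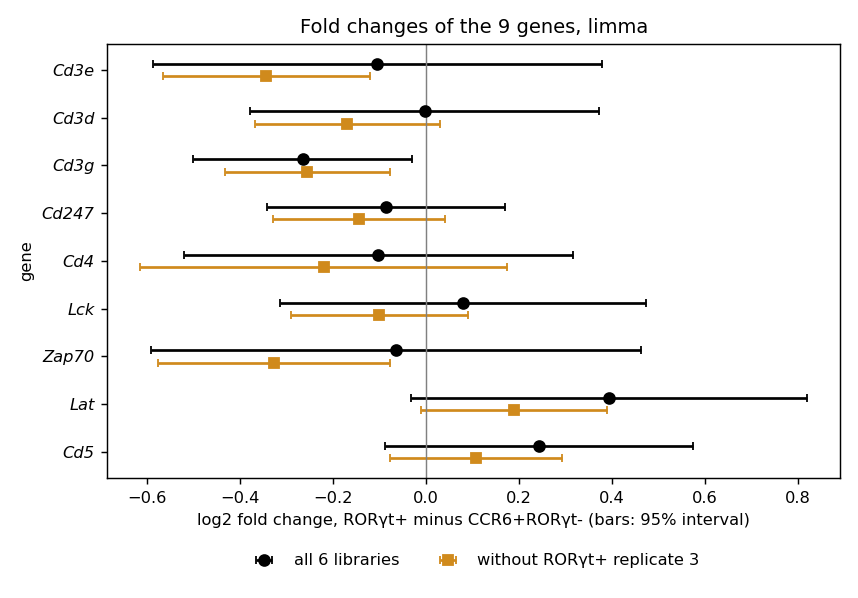
Log2 fold changes, RORγt+ minus CCR6+RORγt-, of the 9 genes from limma, with 95% intervals, for all 6 libraries (circles) and without RORγt+ replicate 3 (squares). With all libraries 8 of the 9 intervals include 0, and without that library those of Cd3e, Cd3g and Zap70 lie below 0.

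RORγt+ replicate 3 was the highest of the 6 libraries in 7 of the 9 genes, all except Cd3g and Cd4. The same library was highest in 27.9% of all genes and in 33.95% of genes with a mean of at least 1000 normalized counts. Relative to the mean of the other RORγt+ libraries, its value was 1.73 times in Zap70, 1.64 times in Cd3e, 1.53 times in Lat, 1.46 times in Lck and 1.41 times in Cd3d. Cd5 stood at 1.33 times, Cd4 at 1.27 times, Cd247 at 1.13 times and Cd3g at 0.979 times. The median of these differences over the 9 genes was 0.50 on the log2 scale, and -0.03 over all genes.

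Without that library, 5 genes were lower in both remaining RORγt+ libraries than in every CCR6+RORγt- library (Cd3e, Cd3d, Cd3g, Cd247 and Zap70), as were 18.4% of all genes. Lat and Cd5 were higher, as were 18.5% of all genes, and Lck and Cd4 overlapped. The log2 fold changes were -0.34 ± 0.09 for Cd3e (SE, adjusted p = 0.148), -0.33 ± 0.10 for Zap70 (adjusted p = 0.194), -0.25 ± 0.07 for Cd3g (adjusted p = 0.172) and 0.19 ± 0.08 for Lat (adjusted p = 0.3). Cd5 stood at 0.11, Lck at -0.10, Cd247 at -0.14, Cd3d at -0.17 and Cd4 at -0.22. No gene of the 9 passed the threshold in this comparison either, in which 0.533% of all genes passed as higher and 0.558% as lower, while 3 of the 9 had an unadjusted p under 0.05, against 17.7% of all genes. The median over the 9 was -0.17, and that of all genes 0.002.

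The difference of RORγt+ replicate 3 from the other RORγt+ libraries moved with the GC content of transcripts. Among 2539 genes with a mean of at least 1000 normalized counts, its median was -0.63 on the log2 scale in the lowest of 4 equal bins of GC content, -0.12 and 0.16 in the middle bins, and 0.33 in the highest. By length the medians ran from 0.28 in the bin of shortest transcripts to -0.41 in the longest. The comparison without RORγt+ replicate 3 also moved with GC content. Its median log2 fold change between the groups was 0.19 in the lowest bin of GC content, then -0.002 and -0.07, and -0.085 in the highest. All 9 transcripts were of 1617 to 3108 bases, within the 2 bins of shorter transcripts. GC content and length were those of the longest transcript of any type. For Cd3g it had 2539 bases, against 1023 in the longest coding transcript, for Cd3e 2550 against 1462, and for Lat 2053 against 1235. The other members had the same length in both. GC content of the coding transcripts was not computed. In GC content the 9 genes were spread widely, with Cd3g the lowest in GC content at 38.5%, Cd3e and Cd247 at 44.5% and 44.4%, and Lat, Cd5 and Zap70 at 57.5%, 56.8% and 59.6%. All 9 stood above the median of genes within 1 percentage point of their own GC content, which were not matched for length. Cd3g, at -0.03, compared with a median of -0.96 over 81 such genes, Cd3e, at 0.72, with -0.34 over 247, and Cd5, at 0.41, with 0.365 over 207.

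**Figure D3:**
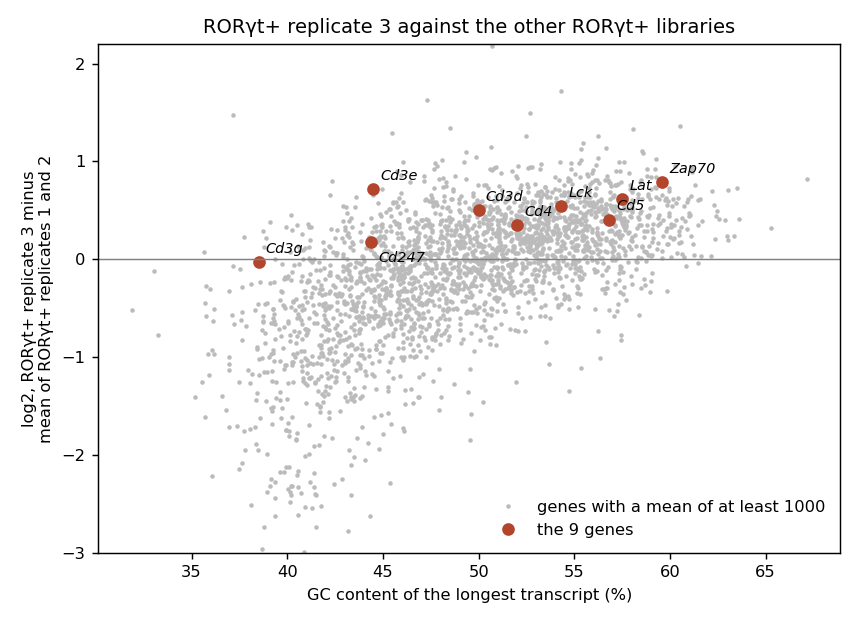
Log2 difference of RORγt+ replicate 3 from the mean of RORγt+ replicates 1 and 2, against the GC content of the longest transcript, for 2539 genes with a mean of at least 1000 normalized counts (grey, 10 of them outside the axis) and the 9 genes (red). Low GC content goes with negative differences. The 9 genes, from Cd3g at 38.5% to Zap70 at 59.6%, lie above the median of genes of similar GC content, Cd5 only by little (0.41 against 0.365).

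A correction of each library for GC content and length, chosen after seeing the data, was therefore applied beside the deposited values. After it, Cd3g no longer separated the groups, at 5417, 5917 and 9242 corrected counts in RORγt+ Tregs, against 9765, 8128 and 6728 in CCR6+RORγt- Tregs. Its log2 fold change stayed as large, at -0.28 ± 0.22 (SE, adjusted p = 0.644), and was -0.54 with the correction and without RORγt+ replicate 3. The close agreement of its deposited values within each group did not hold under this correction, and RORγt+ replicate 3 moved from the lowest library to the second highest. Relative to the mean of RORγt+ replicates 1 and 2, the correction raised replicate 3 to 1.63 times in Cd3g, 1.84 in Cd3e and 1.30 in Cd247. It lowered that ratio in the other members. With the correction, RORγt+ replicate 3 was the highest library in 6 of the 9 genes, against 26.2% of all genes. For Cd3g, Cd3e and Lat the correction used a transcript longer than the longest coding one, and the effect of that choice was not tested. Lat stayed apart, at 4401, 4557 and 5077 against 3586, 3881 and 3863, with a log2 fold change of 0.31 ± 0.10 (SE, adjusted p = 0.232). Cd5 also stayed apart, at 6422, 5998 and 6394 against 5437, 5406 and 5693 (0.19 ± 0.09, adjusted p = 0.425). With the correction, 10.1% of all genes were higher and 10.5% lower without overlap, and none of the 9 genes passed the threshold.

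Ratios between genes of one library do not depend on how libraries are scaled. Of the 36 ratios among the 9 genes, 14 did not overlap between the groups, against 20.8% of all ratios between genes with a mean of at least 1000, and 7 of the 14 had Lat as one partner. Lat was singled out after these values were seen, and ratios that share a gene are not independent. Divided by Lck, Lat stood at 0.502, 0.514 and 0.533 in RORγt+ libraries, against 0.401, 0.426 and 0.420 in CCR6+RORγt- libraries. Divided by Zap70, a transcript of similar GC content, it stood at 1.78, 1.87 and 1.62, against 1.18, 1.28 and 1.37. In both ratios RORγt+ replicate 3 lay with the other RORγt+ libraries. Lat divided by Cd3e was 0.744, 0.797 and 0.716, against 0.485, 0.585 and 0.530, and Lat divided by Cd5 overlapped, at 0.685, 0.754 and 0.829 against 0.651, 0.718 and 0.669. After the correction for GC content and length, 9 of the 36 ratios did not overlap, against 24.8% of all such ratios, and 5 of them had Lat as a partner. Those over Lck, Zap70, Cd3d, Cd247 and Cd4 remained apart, and those over Cd3e and Cd3g overlapped. The log2 difference of Lat over Cd3e was 0.42 after the correction and 0.50 before, that of Lat over Cd3g 0.59 and 0.66, and that of Lat over Lck 0.29 and 0.31.

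**Figure D4:**
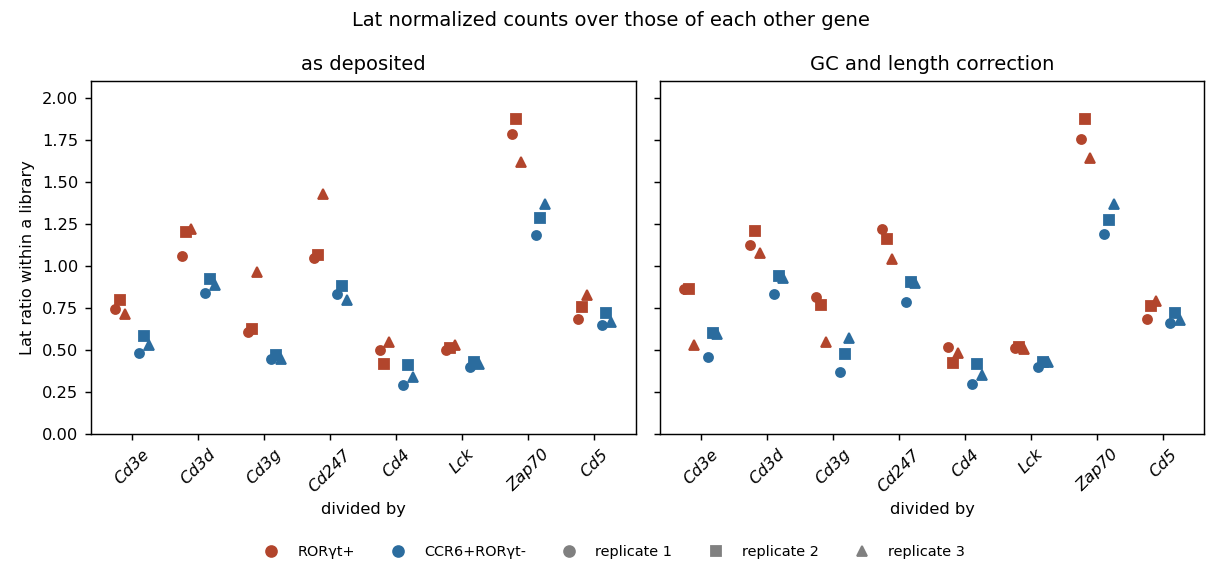
Normalized counts of Lat divided by those of each of the other 8 genes in the same library, RORγt+ Tregs left of CCR6+RORγt- Tregs in each pair, as deposited (left panel) and after correction for GC content and length (right panel). As deposited, 7 of the 8 ratios do not overlap, and after the correction 5 do not, among them Lat over Lck at 0.513, 0.517 and 0.505 against 0.401, 0.430 and 0.427.

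The count levels of the 9 genes were high, above those of 95.4% to 99.3% of all genes. Set per kilobase of the longest coding transcript, Cd3g came first in both groups, at 6576 ± 161 in RORγt+ and 7900 ± 145 in CCR6+RORγt- Tregs (SD, n = 3). Cd3e followed at 4505 ± 1378 and 4716 ± 377, then Lck at 4336 ± 998 and 4035 ± 161, whose values overlapped those of Cd3e in RORγt+ libraries. Lat and Cd4 changed places, with Lat at 3978 ± 1037 and 2965 ± 108 and Cd4 at 3229 ± 594 and 3452 ± 529, and their values overlapped within both groups. Cd3d, Cd5, Cd247 and Zap70 came next, down to 1264 ± 428 and 1280 ± 117 in Zap70. The order rests on the transcript taken as the length. Per kilobase of all exons Lck came first, at 3235 and 3010, and Cd3g stood lower, at 2058 and 2472.

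The genes whose pattern over the 6 libraries was closest to the mean pattern of the 9 genes were Trappc5, Rtcb and Kctd17, with root-mean-square differences of 0.015, 0.018 and 0.024 on the log2 scale among 9047 genes with a mean of at least 100. The same measure was 0.046 for Cd3d and 0.051 for Lck, the members nearest to their own mean, and 0.20 and 0.21 for Lat and Cd3g, the farthest, with a median of 0.26 over all those genes. That shared pattern is mostly RORγt+ replicate 3, at 0.31 above the mean of the 6 libraries.

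Around the 9 genes, 66 others of the pathway were read in 7 lists, and none passed the threshold. The lists were drawn up from textbook knowledge, with earlier results of these data known. At an unadjusted p under 0.05 there were 12 of 66, against 10.9% of all genes. The median log2 fold change of the 66 was 0.03, against -0.01 over all genes. Without overlap, 13 of the 66 were higher in RORγt+ Tregs and 8 lower, against 8.31% and 9.81% of all genes. Genes named below were mostly the 2 of lowest unadjusted p in each list, a choice that favours groups without overlap. The genes of the receptor's constant regions, which anchor the antigen-binding chains in the membrane, were also highest in RORγt+ replicate 3. Trac had 8032, 7728 and 11561 normalized counts in RORγt+ Tregs, against 9627, 9781 and 8603 in CCR6+RORγt- Tregs. Trbc1 averaged 5698 ± 1238 against 5044 ± 224, and Trbc2 10083 ± 1675 against 9275 ± 247 (SD, n = 3, adjusted p = 0.819 and 0.862). These 2 are near-identical copies, and the counting can split reads between them. Their log2 fold changes were 0.16 and 0.11, and -0.02 each without RORγt+ replicate 3.

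**Figure D5:**
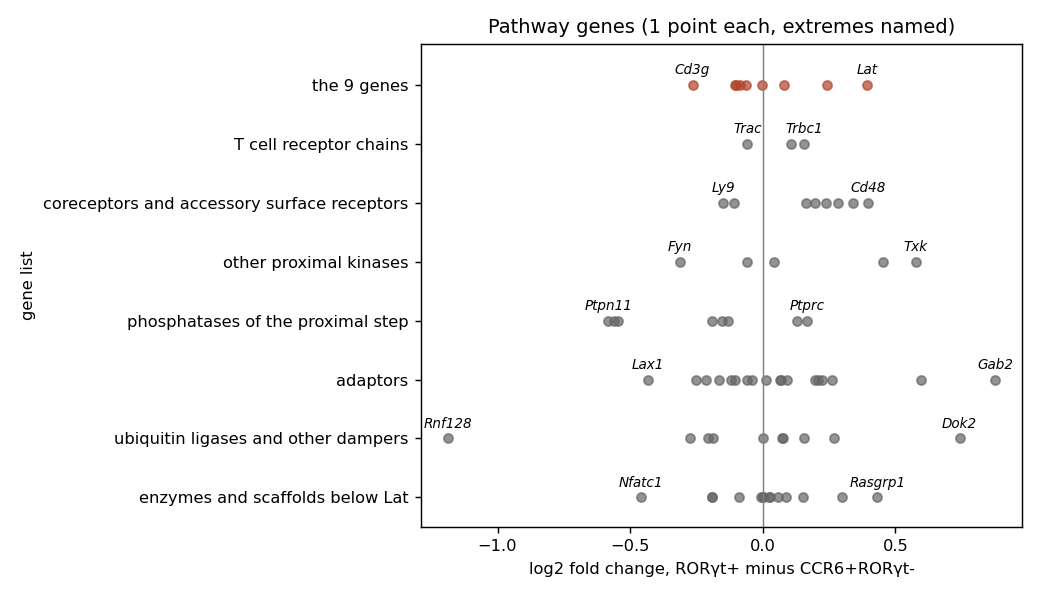
Log2 fold changes, RORγt+ minus CCR6+RORγt-, of the 9 genes (red, top row) and of 66 other genes of the pathway in 7 lists (grey), 1 point per gene, with the lowest and highest of each row named. The 9 genes lie between -0.26 (Cd3g) and 0.39 (Lat), and Rnf128 at -1.19 and Gab2 at 0.88 are the extremes of the other lists, with no gene past the threshold.

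Of 5 other proximal kinases none passed. Txk, a Tec family kinase, had 776, 809 and 785 normalized counts in RORγt+ Tregs, against 501, 554 and 535 in CCR6+RORγt- Tregs, without overlap (log2 fold change 0.58 ± 0.12, SE, adjusted p = 0.128). Fyn, the Src family kinase related to Lck, had 4515, 4698 and 5173 against 6069, 5793 and 5957, also without overlap in the other direction (-0.31 ± 0.11, adjusted p = 0.362). Thus the RORγt+ values of these kinases lay on opposite sides of those of the other sort.

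Of 8 phosphatases none passed either. Ptpn11, which encodes SHP-2, had 1120, 1161 and 1322 normalized counts in RORγt+ Tregs, against 1694, 1903 and 1789 in CCR6+RORγt- Tregs (-0.58 ± 0.12, adjusted p = 0.128, and 0.0395 without RORγt+ replicate 3). It was lower in every RORγt+ library. Ptprj, a receptor phosphatase, averaged 387 ± 69.3 against 560 ± 18.03 (SD, n = 3, adjusted p = 0.293). Ubash3a, a suppressor of receptor signalling that was named after its values were seen, had 1947, 1960 and 2771 against 3743, 3018 and 2998 and did not overlap either (-0.56 ± 0.18, adjusted p = 0.311).

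None of the 8 accessory receptors passed, with the costimulatory receptor Cd28 at 3419 ± 243 against 2817 ± 356 and Cd48, the ligand of CD2 family receptors, at 2217 ± 330 against 1680 ± 219 (SD, n = 3, adjusted p = 0.515 and 0.435). None of the 18 adaptors passed. Among them Sit1 and Lax1, transmembrane adaptors that dampen receptor signals, stood on opposite sides, with Sit1 at 948 ± 297 against 608 ± 32.7 (0.60 ± 0.22, adjusted p = 0.38, and 0.35 without RORγt+ replicate 3) and Lax1 at 1120 ± 65.7 against 1515 ± 131 (-0.43 ± 0.12, adjusted p = 0.261). Of 10 ubiquitin ligases and other dampers none passed. The adaptor Dok2, a negative regulator, had 928, 1123 and 1038 in RORγt+ Tregs, against 530, 637 and 684 in CCR6+RORγt- Tregs (0.74 ± 0.15, adjusted p = 0.115), and the ubiquitin ligase Rnf128 27.9, 22.3 and 18.3 against 50.8, 46.3 and 61.1 (-1.19 ± 0.31, adjusted p = 0.217). In both genes, which were named for their low p, the groups did not overlap. Of 14 enzymes and scaffolds below Lat none passed, and Rasgrp1, the Ras activator that answers to diacylglycerol, averaged 5320 ± 479 against 3941 ± 323 (0.43 ± 0.12, adjusted p = 0.26). Nfatc1, a transcription factor at the end of the calcium branch, averaged 3008 ± 885 against 4023 ± 225 (-0.46 ± 0.21, adjusted p = 0.499).

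Without RORγt+ replicate 3 the sign of the log2 fold change was kept in each named pathway gene other than Trbc1 and Trbc2. It was then 0.58 for Txk, 0.73 for Dok2, 0.51 for Cd48, 0.50 for Rasgrp1 and 0.33 for Cd28. On the other side it was -0.37 for Fyn, -0.43 for Ptprj, -0.48 for Lax1, -0.65 for Ptpn11, -0.67 for Nfatc1, -0.73 for Ubash3a and -1.04 for Rnf128. Trac, with -0.06 in all 6 libraries, stood at -0.24.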

How the data were processed

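Values were analysed for 9 genes in 6 RNA-seq libraries. Per the submitters' processing notes, Salmon 1.2.0, DESeq2 and GRCm38 were used, with no role or order; no source used here names the annotation or the strand setting. What the authors deposited is a signal table of normalized counts, not raw counts, with genes in rows and libraries in columns. From the values, each library's median ratio to the geometric mean was 1.003, and 57.6% to 71.9% of low values lay within 0.1 read of a whole number, so reads were not recovered and no count-based test was run. This fallback was foreseen in the design.

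Values were analysed as log2(value + 1) with a linear model of the 2 groups in limma 3.58.1 (R 4.3.3, mean-variance trend, two-sided, Benjamini-Hochberg adjusted over 15944 genes, threshold 0.05, no filter). That pseudocount understates the fold change of low genes. The fit was tried on simulated whole-number counts with the same spread in all 6 libraries. That trial had no library like RORγt+ replicate 3 and so does not cover its effect. GENCODE M21 (GRCm38) gave positions, lengths, GC content and names, also for 1842 rows without a symbol, and held 15851 of the gene IDs. RefSeq gave the start windows.

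The members and lists were chosen with earlier results of these data known. Besides the 9 members, genes were named as the 2 of lowest p in each list, any past the threshold, and the receptor constant genes; others are said to be chosen later. Alternatives were other pseudocounts, scalings and filters, array weights, robust variances, a replicate block, each library left out and, chosen after seeing the data, a correction for GC content and length (loess of each library's deviation on both).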

Additional observations from a re-analysis of the deposited data

How the results depend on the processing

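Under each of the 17 alternatives run, 0 of the 9 genes passed the threshold, where 90 of all genes did with the settings of the report. Pseudocounts, scalings, the filter at a mean of 10 and robust variances gave 84 to 103 calls. Array weights gave 358 (170 higher, 188 lower) and 4 pathway genes (Txk, Ptpn11, Ubash3a and Dok2). The correction for GC content and length gave 169 (86 higher, 83 lower), and with it and without RORγt+ replicate 3 there were 367 (170 higher, 197 lower) and 3 pathway genes (Ptpn11, Ubash3a and Rasgrp1). With 1 library left out there were 4 to 174 calls (174 without RORγt+ replicate 3 and at most 10 without any other), 1 to 85 of them higher, 0 to 89 lower and 0 to 1 pathway genes. A replicate block gave 1 call, 1 higher and 0 lower. The deviations of libraries that share a number correlated at -0.11, -0.02 and -0.18, and 0 of the 6 correlated best with their own number. The log2 fold changes of Cd3g, Cd247, Lat and Cd5 kept their sign in all 17. Leaving out 1 library moved Cd3e between -0.34 and 0.017, Cd3d between -0.17 and 0.10, Cd4 between -0.22 and 0.049, Lck between -0.10 and 0.19, Zap70 between -0.33 and 0.076, Trac between -0.24 and 0.048, Trbc1 between -0.017 and 0.25, and Trbc2 between -0.024 and 0.19. Cd3d also turned with library totals (0.026), Lck with array weights (-0.060) and with the correction without RORγt+ replicate 3 (-0.049), and Trbc2 with array weights (-0.0017). The cause of these moves was not tested. A count-based test was not run, since the values are not counts. The smallest difference that 3 libraries a group could detect was not computed.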
